A study of Cricetulus griseus with 16 samples.

Results

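Nucleolar ribosome biogenesis factors are the proteins that transcribe, fold, modify and cut the precursor ribosomal RNA (pre-rRNA) in the nucleolus and load ribosomal proteins onto it. A list of 48 genes that encode such factors was followed through heat stress in CHO cells, an established line from Chinese hamster ovary. Of these, 37 were found by gene name among the 20824 genes in the counts, and all 37 had enough reads to be tested in each comparison. The 11 names without a row were Fbl, Ncl, Npm1, Pes1, Rrp1b, Rrs1, Noc3l, Dkc1, Ddx18, Ddx21 and Bysl, and they were not analysed here. The list was drawn up by function, but it was also chosen by a measured value, the lower level of Ppan at 42.5 °C. The contrast of 42.5 °C with 37 °C is therefore given as a description without a test, and so is Ppan in each comparison that uses the 42.5 °C libraries.

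The cells were CHO (ATCC CCL-61), an unmodified line, plated the day before treatment. Total RNA was isolated, and sequencing libraries were made from it with a TruSeq RNA kit. Unheated cells at 37 °C were compared with cells held for 1 h at 40 °C, for 6 h at 40 °C or for 1 h at 42.5 °C, with 4 biological repeats (A to D) per group. The sources do not say whether repeats came from separate passages or days, so the p-values measure the spread between these cultures. Fever-like heat (40 °C) and moderate heat (42.5 °C) were compared at a shared duration of 1 h, and the 2 durations were compared at 40 °C. No harvest time is given for the 37 °C cells, and no 37 °C culture matched to 6 h is described. Heat and time in culture therefore cannot be told apart in the comparisons that use the 6 h group.

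Ribosome production starts with RNA polymerase I (Pol I), which copies the ribosomal DNA with the help of the factor UBF. The long transcript is first packed into the small subunit processome, where small nucleolar ribonucleoproteins (snoRNPs) guide methylation and pseudouridylation and where the first cuts are made. It is then split into a precursor of the small (40S) and a precursor of the large (60S) subunit, each with its own set of assembly factors. The nucleolus is among the compartments known to respond to heat. The counts measure the messenger RNAs of these factors, not pre-rRNA or ribosomes.

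Total counts were 10504192 to 14668365 per library, and each of the 37 genes had 415 to 7351 counts in every library, so counting error was small. Replicate D of the 37 °C group stood apart. It was above replicates A, B and C in 24 of the 37 genes and below all of them in 9, and its summed level of the 37 genes was 7728.4 CPM (read counts scaled to a common library size) against 7227.7 to 7447.6 in the other controls. The study left out 1 control library, and D is the one whose counts do not match its control columns. It was left out of the comparisons here too, and values with it are given beside the results they alter. The heat shock genes Dnajb1, Hspb1 and Hsph1 were higher than at 37 °C in all heated groups, with Dnajb1 at 28.4 ± 1.99 CPM (SD, n = 3) at 37 °C and 394 ± 127 CPM (n = 4) at 42.5 °C. Vim, Fn1, Lgals1, S100a6 and Actb averaged 331.2 to 4302 CPM, while Col1a1, a fibroblast collagen, was absent or nearly so. Of 17 markers of other lineages, 14 were found and summed to 4.74 to 9.66 CPM per library in all groups, and 12 of the 14 averaged under 1 CPM in every group. The other 2 were Cdh1, an epithelial cadherin, at means of 1.8 to 2.91 CPM, and Amh, a granulosa cell hormone, at means of 2.72 to 4.84 CPM.

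At 40 °C, 1 of the 37 genes (2.7%) was lower than at 37 °C after 1 h and 10 (27%) after 6 h. Among all tested genes, 0.572% and 14.8% were lower. The 1 gene was Ppan, whose call was lost in several alternatives. Several genes differed between long mild and short moderate heat, in shares not far from those of all tested genes. At 40 °C for 6 h, Noc2l, Rrp9 and Nop14 fell against 37 °C, while the 4 Pol I genes of the list and Nop56 did not pass the test. Of 10 other Pol I factors outside the list, 2 (20%) were lower there and 0 higher. At 42.5 °C for 1 h, the 4 Pol I genes of the list and Nop56 were lower than at 40 °C for 1 h, while Nop58, Utp4 and Utp20 were higher. Ppan had by far the largest difference, at 53.3 ± 3.74 CPM (n = 4) at 42.5 °C against 121.6 ± 9.29 CPM (n = 3) at 37 °C. No other gene of the 37 differed by 1.5-fold between groups in these fits. Among all tested genes, a change of at least 1.5-fold that passed the test was found in 0.334% of all tested genes after 1 h and 3.11% after 6 h at 40 °C against 37 °C, in 1.28% between those 2 groups, and in 7.51%, 5.27% and 8.25% at 42.5 °C against 37 °C, 40 °C for 1 h and 40 °C for 6 h, and nothing is read from the place of Ppan among these, since its fall helped to choose the list. In bulk RNA, fewer cells with a transcript and less of it per cell cannot be told apart.

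**Figure D1:**
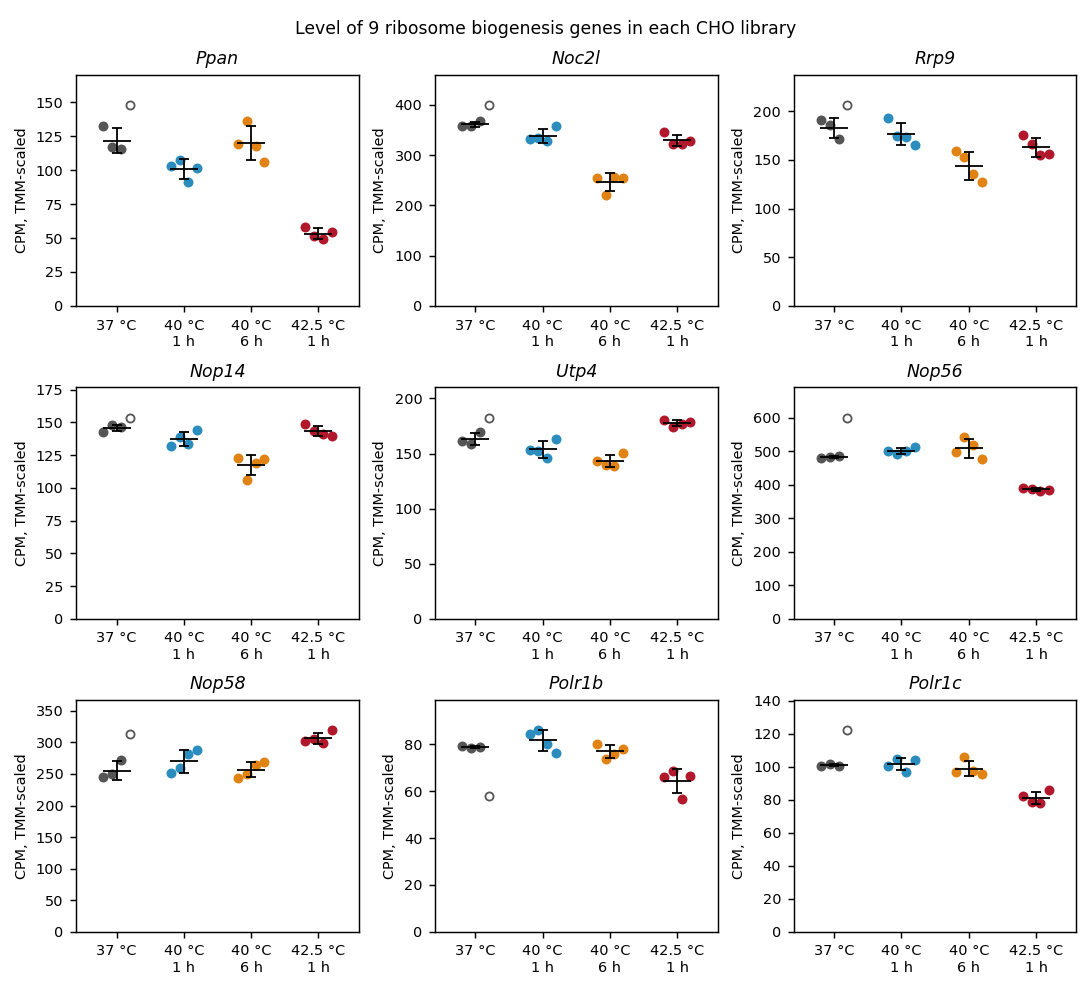
Expression level (CPM, y axis from 0) of Ppan and 8 other genes named in the text in each library, by group, with the mean and SD as bars and 37 °C replicate D as an open point left out of the mean. Ppan sat between 49.2 and 57.8 CPM at 42.5 °C and at 90.9 CPM or more elsewhere, whereas Noc2l sat between 221.0 and 257.0 CPM at 40 °C for 6 h and at 322.8 CPM or more elsewhere.

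A gene passed the test where edgeR's quasi-likelihood test gave a Benjamini-Hochberg adjusted p under 0.05 over all genes tested. After 1 h at 40 °C, 1 of the 37 genes (2.7%) was lower and 0 were higher than at 37 °C, against 0.572% lower and 1.07% higher among the 10494 genes tested. At an unadjusted p under 0.05 the counts were 4 lower and 0 higher, beside 720 lower and 837 higher of all 10494 genes. DESeq2 also called 0 higher. After 6 h at 40 °C, 10 genes (27%) were lower and 0 were higher, where 14.8% of all tested genes were lower and 14.7% were higher. At an unadjusted p under 0.05 these were 13 lower and 0 higher, beside 2155 lower and 2145 higher of all 10499 genes. DESeq2 again called 0 higher. Among genes with at least the mean count of the lowest of the 37, 0.573% were lower and 1.44% higher after 1 h, and 16.6% lower and 16.6% higher after 6 h. The median log2 fold change of the 37 genes was -0.03 after 1 h and -0.07 after 6 h, with a median of 0 for all tested genes. The share of lower genes at 6 h was thus above the background and the 1 gene at 1 h was Ppan. With the replicate letter as a block, 6 genes were lower after 1 h. Calls among all tested genes, in either direction, rose there from 172 to 636. With replicate D among the controls, 0 genes were lower after 1 h and 7 after 6 h. Calls among all tested genes then fell from 172 to 4 after 1 h and from 3091 to 1122 after 6 h.

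At 42.5 °C, 15 genes were lower and 3 higher than at 37 °C at the same threshold, beside 22.3% lower and 20.8% higher among all tested genes and 20.6% and 28.9% among genes of at least that mean count, and the median was -0.08. Nothing is read from these counts, since this contrast helped to choose the list. With all 4 controls they were 8 lower and 0 higher, and calls among all tested genes fell from 4510 to 1895. The comparisons with 37 °C share their control libraries, so their values are set side by side only.

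Between the heated groups no control library is involved. From 1 h to 6 h at 40 °C, 7 genes (18.9%) fell and 1 rose, where 9.04% of all tested genes fell and 9.45% rose (11% and 11% among genes with at least the mean count of the lowest of the 37). From 40 °C to 42.5 °C at 1 h, 14 genes (37.8%) were lower and 6 (16.2%) higher, with 19.6% lower and 16.4% higher among all tested genes. Among genes of at least that mean count, those shares were 17.8% lower and 24.3% higher. A further comparison, of 42.5 °C for 1 h with 40 °C for 6 h, was added after the counts had been read, and temperature and duration both differ in it. It had 8 genes (21.6%) lower and 11 (29.7%) higher, beside 24.5% and 22.5% of all tested genes and 22.2% and 30.1% of those with at least that mean count, so neither share stood far from the background. These 3 comparisons share libraries with each other, and the counts of 14 and 8 lower genes include Ppan, which carries no test there; without it they were 13 and 7 of 36.

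The summed level of the 37 genes varied little. It was 7309.5 ± 120.3 CPM (n = 3) at 37 °C, 7173.8 ± 39.2 CPM (n = 4) after 1 h and 6863.8 ± 79.1 CPM (n = 4) after 6 h at 40 °C, and 6916.9 ± 75 CPM (n = 4) at 42.5 °C. The 6 h and 42.5 °C libraries lay below all libraries of the other groups, and those 2 groups overlapped each other.

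**Figure D2:**
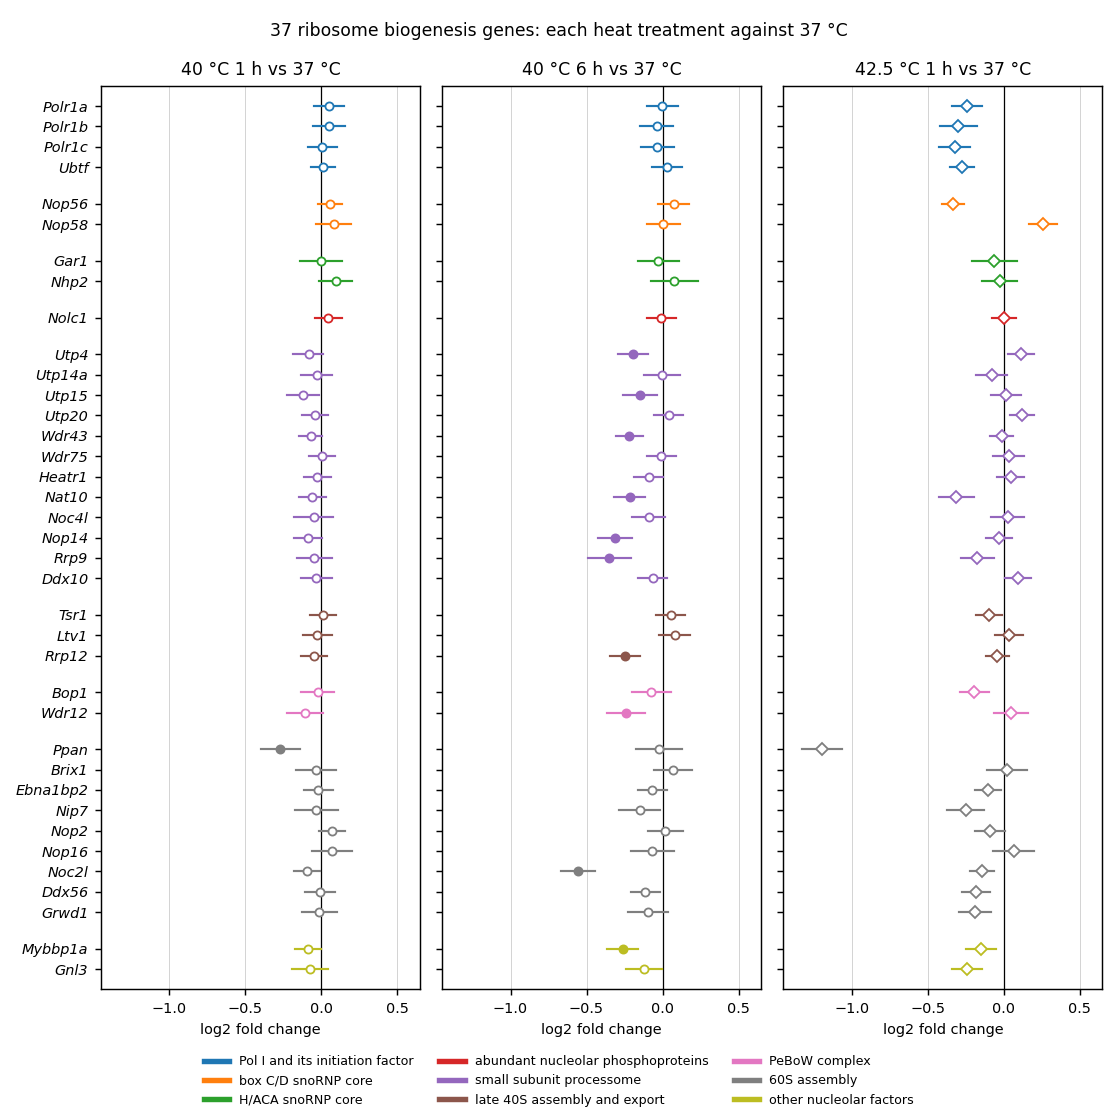
Log2 fold change (x axis) of each of the 37 genes against 37 °C in the 3 heated groups, ordered and coloured by role, with 95% confidence intervals as bars. Filled circles passed the test, open circles did not, and diamonds carry no test; Noc2l at -0.56 after 6 h and Ppan at -1.20 at 42.5 °C lie farthest from 0.

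Pol I and its initiation factor were represented by Polr1a and Polr1b, the catalytic core subunits, Polr1c, a subunit shared with Pol III, and Ubtf, which encodes UBF. Polr1b was at 79.2, 78.6 and 79.0 CPM in 37 °C replicates A to C, at 84.5, 86.0, 80.1 and 76.3 CPM after 1 h at 40 °C, at 80.0, 73.9, 76.1 and 78.0 CPM after 6 h, and at 66.1, 68.7, 56.9 and 66.3 CPM at 42.5 °C. Polr1c was at 100.8, 102.0 and 100.6 CPM at 37 °C, at 100.5, 104.6, 97.0 and 104.4 CPM after 1 h, at 96.7, 105.8, 97.5 and 95.9 CPM after 6 h, and at 82.3, 78.5, 78.1 and 85.9 CPM at 42.5 °C. For both genes, the 42.5 °C libraries were below every library of the 3 other groups used in the fits. The excluded replicate D had 58.1 CPM of Polr1b, within the 42.5 °C range, and 122.1 CPM of Polr1c, above all other libraries.

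All 4 genes were lower at 42.5 °C than at 40 °C for the same hour. The log2 fold changes were -0.35 (SE 0.06, adjusted p = 0.000322) for Polr1b, -0.33 (SE 0.05, adjusted p = 5.55e-05) for Polr1c, -0.29 (SE 0.04, adjusted p = 7.27e-05) for Polr1a and -0.28 (SE 0.04, adjusted p = 2.17e-05) for Ubtf. Against 40 °C for 6 h they were -0.26, -0.29, -0.24 and -0.30 in the same order, and all passed the test. Against 37 °C the 42.5 °C values were -0.30, -0.32, -0.24 and -0.27, which became -0.19, -0.38, -0.14 and -0.31 with replicate D among the controls. At 40 °C none of the 4 passed the test against 37 °C. Their log2 fold changes there were 0.01 to 0.05 after 1 h and -0.04 to 0.03 after 6 h, with 95% confidence intervals that reached from -0.15 to 0.16.

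**Figure D3:**
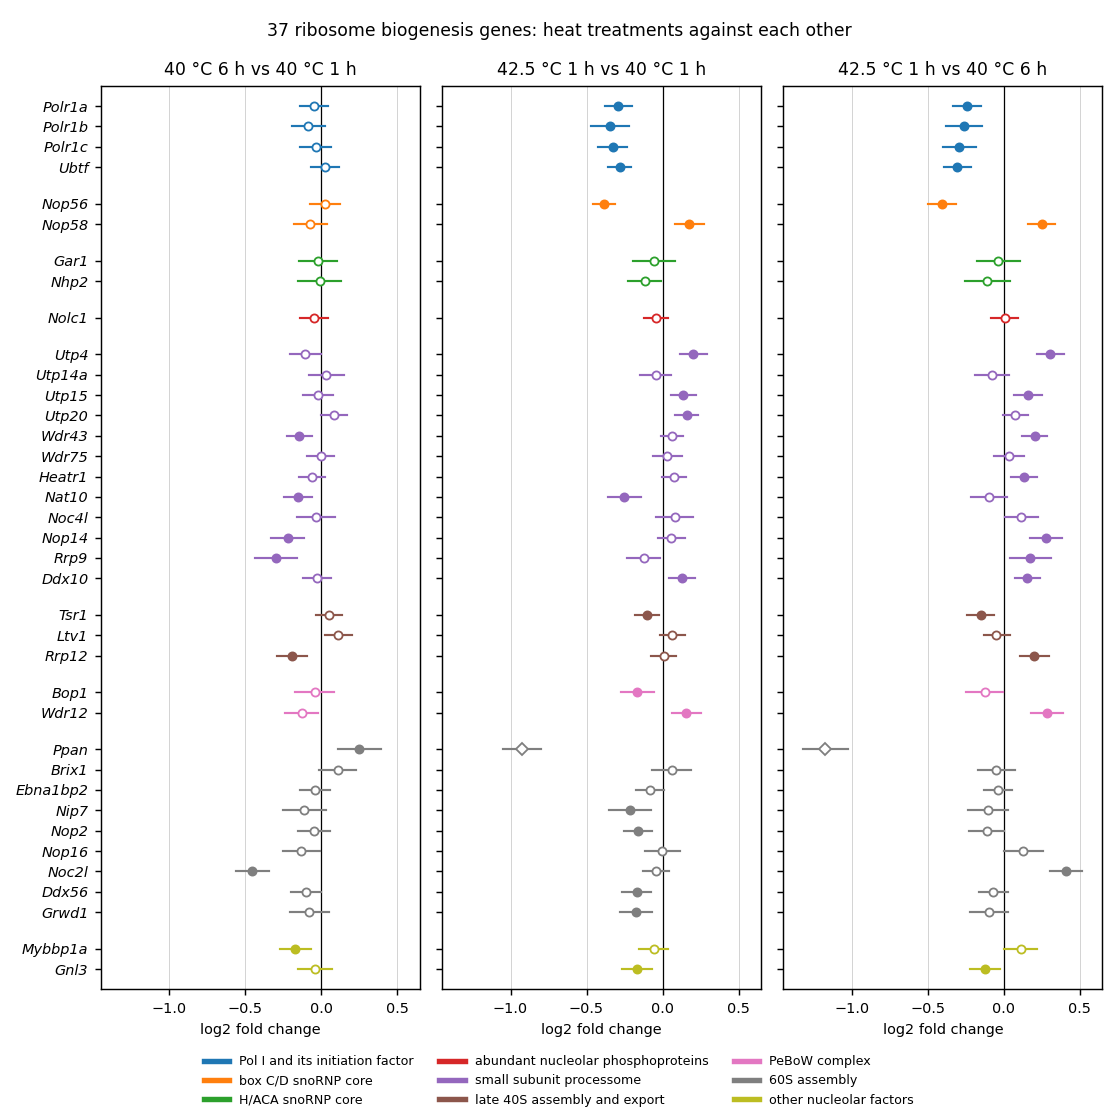
Log2 fold change (x axis) of the 37 genes between heated groups, ordered and coloured by role, with 95% confidence intervals as bars. Filled circles passed the test, open circles did not, and diamonds mark Ppan in the comparisons that are described without a test. The Pol I genes and Nop56 lie left of 0 in both panels that hold 42.5 °C, and Noc2l at -0.46 lies farthest left for 6 h against 1 h.

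Nop56 and Nop58 are paired core proteins of the box C/D snoRNPs, which methylate rRNA, and the U3 particle of the processome holds both. They moved in opposite directions at 42.5 °C. Nop56 was at 479.6, 481.3 and 486.6 CPM at 37 °C, at 499.6, 490.3, 500.0 and 512.5 CPM after 1 h at 40 °C, at 496.7, 541.8, 518.6 and 477.1 CPM after 6 h, and at 389.5, 388.0, 380.1 and 385.2 CPM at 42.5 °C. All 42.5 °C libraries lay far below the rest. Nop58, which falls outside the rule for genes with full values and was picked after its values were seen, was at 245.0, 249.3 and 272.1 CPM at 37 °C, at 251.1, 259.0, 281.0 and 288.7 CPM after 1 h, at 244.0, 249.6, 263.5 and 269.2 CPM after 6 h, and at 302.0, 305.1, 299.7 and 319.0 CPM at 42.5 °C. Its 42.5 °C libraries were above all others except replicate D, at 313.9 CPM.

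Between 40 °C and 42.5 °C at 1 h, the log2 level of Nop56 fell by 0.38 (SE 0.03, adjusted p = 7.75e-07) and that of Nop58 rose by 0.18 (SE 0.05, adjusted p = 0.0073). Against 40 °C for 6 h the changes were -0.41 (SE 0.04, adjusted p = 1.35e-06) and 0.25 (SE 0.04, adjusted p = 0.000178). Against 37 °C they were -0.33 and 0.26, or -0.40 and 0.19 with replicate D. At 40 °C neither gene passed the test after 1 h (0.05 and 0.08) or 6 h (0.07 and 0.00). The ratio of Nop56 to Nop58 reads within a library does not depend on how libraries are scaled. It was 1.89 ± 0.09 (n = 3) at 37 °C, 1.86 ± 0.10 (n = 4) after 1 h, 1.99 ± 0.17 (n = 4) after 6 h and 1.26 ± 0.04 (n = 4) at 42.5 °C. The highest 42.5 °C ratio, 1.29, was below the lowest of any other library, 1.77. This ratio was chosen after the values were seen and has no test. In RefSeq's CriGri-PICRH-1.0 annotation, other genes overlap both Nop56 and Nop58, among them Idh3b at Nop56. The sources do not say whether reads were counted by strand, so reads of such genes could be part of these counts.

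The H/ACA snoRNP proteins Gar1 and Nhp2, which take part in pseudouridylation, and Nolc1, a nucleolar phosphoprotein that chaperones snoRNPs, passed no test. Their log2 fold changes were -0.12 to 0.09 over the comparisons. Gar1 ranged from 44.3 to 55.7 CPM and Nhp2 from 41.4 to 53.4 CPM over the libraries used, with overlapping groups.

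The small subunit processome, the large particle that assembles on the newborn transcript, held 12 of the 37 genes, more than any other role. Of these, 6 (50%) were lower than at 37 °C after 6 h at 40 °C and 0 were higher, by adjusted and by unadjusted p under 0.05 alike. Among all tested genes, 14.8% were lower and 14.7% higher by adjusted p. By unadjusted p these were 2155 and 2145 of 10499 genes. Rrp9, which encodes a U3 snoRNP protein, was at 191.0, 185.8 and 171.3 CPM at 37 °C, at 192.8, 175.1, 173.6 and 165.7 CPM after 1 h at 40 °C, at 159.4, 152.6, 136.0 and 127.1 CPM after 6 h, and at 175.5, 166.3, 155.0 and 155.8 CPM at 42.5 °C. Nop14, which encodes a scaffold protein of the processome, was at 142.7, 147.8 and 146.5 CPM at 37 °C, at 131.8, 138.8, 133.8 and 144.4 CPM after 1 h, at 122.9, 106.2, 119.0 and 122.2 CPM after 6 h, and at 148.6, 143.6, 141.2 and 139.9 CPM at 42.5 °C. For both genes the 6 h libraries were below all libraries at 37 °C and at 40 °C for 1 h, and for Nop14 they were below those at 42.5 °C too.

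After 6 h against 37 °C, Rrp9 fell by 0.35 (SE 0.07, adjusted p = 0.000927) and Nop14 fell by 0.31 (SE 0.05, adjusted p = 0.00041) on the log2 scale. Wdr43 and Utp4 fell by 0.22 and 0.19, and Nat10, an RNA acetyltransferase, fell by 0.21. Utp15 was at -0.15 (adjusted p = 0.0444), with adjusted p up to 0.48 over the alternatives. Its call was lost without 37 °C replicate B (0.0795) or C (0.246) and without 6 h replicate A (0.0913) or B (0.0879). It was also lost with all 4 controls and with DESeq2. Utp14a, Utp20, Wdr75, Heatr1, Noc4l and Ddx10 did not pass, at -0.09 to 0.04. With all 4 controls, Nat10 also lost its call (-0.16, adjusted p = 0.162). From 1 h to 6 h at 40 °C, Rrp9 fell by 0.30 (adjusted p = 0.00492), Nop14 by 0.22 (adjusted p = 0.00812), Nat10 by 0.15 (adjusted p = 0.0234) and Wdr43 by 0.14 (adjusted p = 0.0166). The Nat10 call was lost without 1 h replicate A (0.0692) or B (0.0559) or 6 h replicate D (0.0613).

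Between 40 °C and 42.5 °C at 1 h, 4 of the 12 processome genes (33.3%) were higher and 1 (8.33%) was lower. Among all tested genes, 16.4% were higher and 19.6% lower. Among genes with at least the mean count of the lowest of the 37, 24.3% were higher and 17.8% lower. These shares were not compared by a test. At 42.5 °C against 40 °C for 1 h, Utp4, Utp20, Utp15 and Ddx10, an RNA helicase, were higher by 0.20, 0.16, 0.14 and 0.13 on the log2 scale, with adjusted p of 0.00143 to 0.0226, and Nat10 was lower by 0.25 (adjusted p = 0.00139). The Ddx10 call was lost without 40 °C replicate A (0.10, adjusted p = 0.0751) or B (0.11, adjusted p = 0.0692). Rrp9 (-0.12) and Nop14 (0.06) did not pass. Utp4, also picked after its values were seen, was at 161.8, 158.5 and 169.3 CPM at 37 °C, at 153.5, 151.9, 145.8 and 163.6 CPM after 1 h at 40 °C, at 143.6, 139.4, 138.5 and 150.2 CPM after 6 h, and at 180.8, 174.3, 177.1 and 178.4 CPM at 42.5 °C. It was lowest after 6 h and highest at 42.5 °C, with no overlap between these groups, and the difference was 0.31 (SE 0.04, adjusted p = 2e-05). In the same comparison, added after the counts had been read, Nop14 (0.28), Wdr43 (0.21), Rrp9 (0.18), Utp15 (0.16), Ddx10 (0.16) and Heatr1 (0.14) were also higher at 42.5 °C. There 7 of the 12 (58.3%) were higher and 0 lower, beside 22.5% and 24.5% of all tested genes. Among genes of at least that mean count, 30.1% were higher and 22.2% lower. By unadjusted p, 8 were higher and 0 lower, beside 2726 and 2889 of all 10427 genes. The Rrp9 call was lost without 6 h replicate C (0.15, adjusted p = 0.0956) or D (0.12, adjusted p = 0.108) and without 42.5 °C replicate A (0.14, adjusted p = 0.0992) or B (0.17, adjusted p = 0.0746).

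Of the late 40S factors, Rrp12, a protein needed for subunit maturation and export, fell by 0.25 after 6 h at 40 °C against 37 °C (SE 0.05, adjusted p = 0.0011) and by 0.20 against 1 h (adjusted p = 0.00929). It was 0.20 higher at 42.5 °C than after 6 h (adjusted p = 0.00119). Tsr1, which occupies the pre-40S particle, was lower at 42.5 °C than after 6 h by 0.15 (adjusted p = 0.00563). Its difference from 40 °C for 1 h was -0.10 (adjusted p = 0.0374), and that call was lost in 9 of 14 alternatives, which include leaving out any 1 of the 8 libraries except 40 °C replicate D; without 42.5 °C replicate C the adjusted p was 0.14. Ltv1, another pre-40S factor, passed no test, at -0.05 to 0.11.

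Bop1 and Wdr12 belong with Pes1 to the PeBoW complex, which processes the 60S precursor. At 42.5 °C against 40 °C for 1 h, Bop1 was lower by 0.17 (SE 0.05, adjusted p = 0.018) and Wdr12 was higher by 0.16 (SE 0.04, adjusted p = 0.0138). The Bop1 call was lost without 40 °C replicate A (adjusted p = 0.0648) or B (0.0543) and without 42.5 °C replicate B (0.079) or D (0.0533). After 6 h at 40 °C, Wdr12 was lower than at 37 °C by 0.24 (SE 0.06, adjusted p = 0.00586), while Bop1 was at -0.07 and did not pass. The ratio of Bop1 to Wdr12 reads was 0.95 ± 0.04 (n = 4) at 42.5 °C, 1.12 ± 0.11 (n = 3) at 37 °C, 1.19 ± 0.12 (n = 4) after 1 h and 1.26 ± 0.18 (n = 4) after 6 h. Its 42.5 °C range reached 1.00 and the lowest value at 37 °C was 1.01, but replicate D, at 0.90, fell below all of them. This ratio was not planned and has no test.

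**Figure D4:**
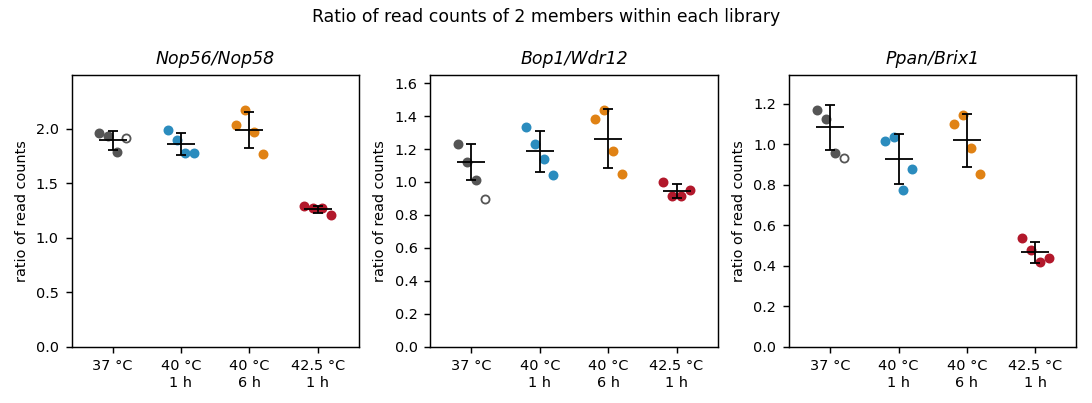
Ratio of read counts of 2 genes within each library (y axis from 0) by group, with mean and SD as bars and 37 °C replicate D as an open point left out of the mean. The Nop56 to Nop58 ratio was at most 1.29 at 42.5 °C and at least 1.77 elsewhere, and the Ppan to Brix1 ratio was at most 0.54 at 42.5 °C and at least 0.77 elsewhere.

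Among the 60S factors, Ppan encodes a nucleolar protein of the family with Brix1, needed for maturation of the large subunit. Ppan was at 132.3, 117.0 and 115.5 CPM at 37 °C, at 103.2, 107.3, 90.9 and 101.8 CPM after 1 h at 40 °C, at 119.4, 136.2, 118.0 and 106.2 CPM after 6 h, and at 57.8, 51.5, 49.2 and 54.7 CPM at 42.5 °C. The 42.5 °C libraries were far below all others, the 1 h libraries were below those at 37 °C, and the 6 h libraries overlapped with 37 °C. At 42.5 °C the level was 0.437-fold that at 37 °C (log2 fold change -1.20, SE 0.06), 0.527-fold that at 40 °C for 1 h (-0.93, SE 0.06) and 0.443-fold that at 40 °C for 6 h (-1.17, SE 0.07), given without a test.

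The values of Ppan at 40 °C did not choose the list, and they were tested. After 1 h its log2 level was lower than at 37 °C by 0.27 (SE 0.06, adjusted p = 0.0339). This call was lost without 37 °C replicate A (-0.20, adjusted p = 0.173) or B (-0.30, 0.0759), without 1 h replicate A (-0.28, 0.0517) or C (-0.23, 0.102), in a single fit over all groups (0.0752) and with all 4 controls (-0.35, 0.324). After 6 h it was at -0.02 against 37 °C (95% confidence interval -0.17 to 0.12, adjusted p = 0.827). From 1 h to 6 h it rose by 0.25 (SE 0.07, adjusted p = 0.0168), a call that was lost without 1 h replicate C (0.20, adjusted p = 0.0647) or 6 h replicate B (0.18, adjusted p = 0.0645). Brix1 itself passed no test, at -0.05 to 0.11. The ratio of Ppan to Brix1 reads was 1.09 ± 0.11 (n = 3) at 37 °C, 0.93 ± 0.13 (n = 4) after 1 h, 1.02 ± 0.13 (n = 4) after 6 h and 0.47 ± 0.05 (n = 4) at 42.5 °C. This ratio was not planned and has no test, and at 42.5 °C it holds the Ppan values that helped to choose the list.

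Noc2l, which encodes a protein of the early pre-60S export pathway, had the largest change of the 37 genes at 40 °C. It was at 358.8, 359.0 and 367.2 CPM at 37 °C, at 332.6, 333.3, 328.8 and 358.4 CPM after 1 h, at 254.3, 221.0, 257.0 and 255.0 CPM after 6 h, and at 345.9, 322.8, 323.1 and 328.0 CPM at 42.5 °C. The 6 h libraries were below all others. Its log2 level fell by 0.56 after 6 h against 37 °C (SE 0.05, adjusted p = 1.93e-06), or to 0.681-fold, and by 0.46 against 1 h (SE 0.05, adjusted p = 4.31e-05). It was 0.41 higher at 42.5 °C than after 6 h (SE 0.05, adjusted p = 4.32e-06), and at 42.5 °C against 40 °C for 1 h it did not pass (-0.04). With replicate D among the controls the 6 h change was -0.59 and passed the 1.5-fold limit. In the RefSeq annotation another gene, Samd11, overlaps Noc2l.

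The other 60S factors moved less. At 42.5 °C against 40 °C for 1 h, Nip7 (-0.21), Grwd1 (-0.17), a chaperone for a ribosomal protein, Ddx56 (-0.17), a helicase, and Nop2 (-0.16), an rRNA methyltransferase, were lower, with adjusted p of 0.00814 to 0.0158. The Nip7 call was lost without 40 °C replicate A (adjusted p = 0.0605) or B (0.0511) or 42.5 °C replicate B (0.0567). None of these 4 passed at 40 °C for 6 h against 37 °C, where they were at -0.15 to 0.02. Ebna1bp2 and Nop16, also of the 60S precursors, passed no test. Of the other factors, Mybbp1a, a nucleolar regulator of Pol I, fell by 0.26 after 6 h against 37 °C (SE 0.05, adjusted p = 0.000845), and with all 4 controls this was -0.21 (adjusted p = 0.116). From 1 h to 6 h it fell by 0.17 (adjusted p = 0.0203), a call lost without 1 h replicate A (0.0569) or B (0.0646) or 6 h replicate C (0.0735) or D (0.0574). Gnl3, the nucleolar GTPase nucleostemin, was lower at 42.5 °C than at 40 °C for 1 h by 0.17 (SE 0.05, adjusted p = 0.0105).

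**Figure D5:**
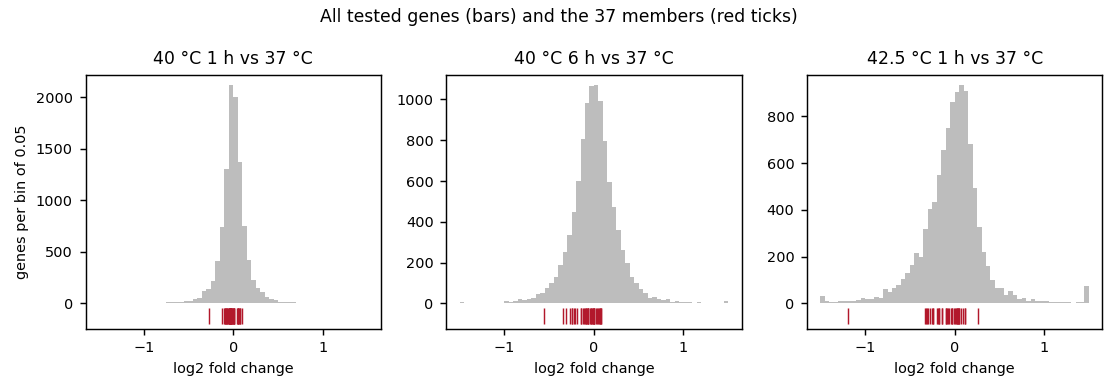
Number of tested genes per bin of log2 fold change (y and x axis) for each heated group against 37 °C, with the 37 genes as red ticks beneath and larger changes gathered in the end bins. Most of the 37 lie within the bulk of all genes in each panel, with medians of -0.08 to -0.03, and Ppan lies apart at -1.20 in the panel for 42.5 °C.

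The direct comparison of 42.5 °C for 1 h with 40 °C for 6 h does not use the controls. Lower after 6 h than at 42.5 °C were Noc2l, Utp4, Wdr12, Nop14, Nop58, Wdr43, Rrp12, Rrp9, Utp15, Ddx10 and Heatr1. Lower at 42.5 °C were Nop56, Ubtf, Polr1c, Polr1b, Polr1a, Tsr1 and Gnl3, where Gnl3 was at -0.12 (adjusted p = 0.0419) and lost its call in 9 of 14 alternatives, with adjusted p up to 0.133. Bop1, Nip7, Ddx56 and Grwd1, which were lower at 42.5 °C than at 40 °C for 1 h, did not pass against 6 h, at -0.12 to -0.07 with adjusted p of 0.0913 to 0.22. Nat10 also did not pass there (-0.10, adjusted p = 0.16).

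A wider list held 112 symbols for 108 other ribosome biogenesis genes, 4 of them under both a current and an older symbol, and 99 of the 108 genes were found and tested. After 6 h at 40 °C, 27 of them were lower and 6 higher than at 37 °C (27.3% and 6.06%), beside 14.8% and 14.7% of all tested genes. The largest changes were in Imp3 (-0.62, adjusted p = 0.000404), a U3 snoRNP protein, Cd3eap (-0.60, adjusted p = 4.29e-05), a Pol I subunit, Nle1 (-0.45), a 60S factor, Nsun5 (0.36), an rRNA methyltransferase, and Ddx55 (-0.36), a helicase. After 1 h only Cd3eap passed (-0.34, adjusted p = 0.0324). From 1 h to 6 h, 11 were lower and 5 higher (11.1% and 5.05%, beside 9.04% and 9.45% of all tested genes), led by Eif6 (-0.28), which keeps free subunits apart. These shares of lower genes were near those of the 37 genes or below them.

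At 42.5 °C against 40 °C for 1 h, 20 of the 99 were lower and 12 higher (20.2% and 12.1%), beside 19.6% and 16.4% of all tested genes. Taf1d, a subunit of the Pol I selectivity factor, was at -1.35 (adjusted p = 2.72e-06) and Imp3 at -0.93 (adjusted p = 1.2e-05). Urb2, a 60S factor, was at -0.55, Nol6, of the processome, at -0.45, and Exosc6, of the RNA exosome, at -0.40. Against 37 °C, Taf1d was at -1.72 and Imp3 at -1.28, and Sbds, which releases Eif6 from the 60S subunit, was at 0.52. The 10 other Pol I factors did not move as a group, with 2 lower and 1 higher between these temperatures at 1 h. From 40 °C for 6 h to 42.5 °C, 25 of the 99 were lower and 26 higher (25.3% and 26.3%), near the 24.5% and 22.5% of all tested genes.

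Myc, the transcription factor known for driving ribosome biogenesis genes, was at 472.1 ± 12.6 CPM (n = 3) at 37 °C, 480.6 ± 71 CPM (n = 4) after 1 h and 385 ± 27.9 CPM (n = 4) after 6 h at 40 °C, and 361.3 ± 28.5 CPM (n = 4) at 42.5 °C. It fell by 0.30 after 6 h against 37 °C (adjusted p = 0.000541) and was 0.42 lower on the log2 scale at 42.5 °C than at 40 °C for 1 h (adjusted p = 0.00102). Between 42.5 °C and 40 °C for 6 h it was at -0.10 (adjusted p = 0.183). Mnt, which competes with Myc for its partner Max, was at -0.29 after 6 h against 37 °C (adjusted p = 0.0169), at -0.64 at 42.5 °C against 40 °C for 1 h (adjusted p = 8.33e-05), and at -0.57 against 40 °C for 6 h (adjusted p = 0.000169). Max was lower at 42.5 °C than at 40 °C for 1 h (-0.26, adjusted p = 0.0245), and Mxd4 was lower at 42.5 °C than after 6 h (-0.25, adjusted p = 0.00283). Mlx (0.22), Mxi1 (0.28) and Mga (0.21) were higher after 6 h than at 37 °C, and Mga was also higher than after 1 h (0.25). Mxd1, Mxd3 and Mlxip passed no test, and Mycn and Mycl had too few reads to be tested. The part of Myc in the levels of the 37 genes was not tested.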

How the data were processed

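RNA of CHO cells was sequenced on an Illumina NextSeq (TruSeq RNA kit, paired reads). According to the study's methods, the authors mapped the reads to the CHOK1GS_HDv1 build with CLC Genomics Workbench, and they deposited whole-number read counts per gene without normalization. Strand setting and annotation release are not given in the sources used here.

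The listed genes were matched by name. Genes were kept by filterByExpr, scaled by TMM and compared with edgeR 4.0.16 in R 4.3.3 (quasi-likelihood fits of only the 2 groups compared, Benjamini-Hochberg over all tested genes, limma 3.58.1 beneath it). A DEG also had a fold change of at least 1.5. Levels are CPM scaled by TMM over all 16 libraries. The fits of 2 groups, without 37 °C replicate D, had a biological coefficient of variation of 0.049 to 0.056. The 37 °C mean leaves out replicate D: of 920 genes in the study's table of counts, 920 match a control column for A, B and C and 72 for D. The scripts were tested on simulated data. Alternatives were DESeq2 1.42.0 (its size factors, and its Wald test), no filter, a minimum of 10 counts in every library, 1 fit over all groups, a replicate block, all 4 controls, and leaving out each replicate. Genes with values in every library are Ppan and the 3 with the largest change past the test in each comparison; other ribosome biogenesis genes are named from the 5 with the largest change, and the Myc network in full. The genes and lists were chosen with earlier results of these data known. Of the 37 genes, 34 were found by name in RefSeq's CriGri-PICRH-1.0 annotation, and 10 of them overlap another gene there. These are Polr1b, Nop56, Nop58, Utp4, Utp20, Wdr43, Tsr1, Bop1, Noc2l and Gnl3. Ppan, Gar1 and Utp15 were not found there, so their overlap with other genes was not checked. No sequences are shown, since the reference used here holds none.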

Additional observations from a re-analysis of the deposited data

Results flagged for a closer look

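In 16 of 148 groups of 4 libraries (37 genes in 4 groups, or 10.8%), 1 library stood apart by Dixon's criterion. Chance alone gives about 1 in 20 for independent groups, but the 37 genes share the same 16 libraries. The criterion sets a gap against the range of its group, so a flagged gap can be small. For Ddx56 after 6 h at 40 °C it lay between 112.6 and 114.8 CPM. Replicate D at 37 °C accounted for 6 of the 16, with Polr1b low at 58.1 CPM and Polr1c (122.1 CPM), Nop56 (600.0 CPM), Nhp2 (65.21 CPM), Ebna1bp2 (230.8 CPM) and Ddx56 (143.3 CPM) high. The other 10 were spread over the heated groups. At 40 °C for 1 h, replicate D was low for Polr1a (110.4 CPM) and high for Noc2l (358.4 CPM). At 40 °C for 6 h, replicate B was high for Polr1c (105.8 CPM) and low for Noc2l (221.0 CPM), replicate C was high for Utp20 (451.8 CPM), and replicate D was high for Wdr43 (267.7 CPM) and Ddx56 (114.8 CPM) and low for Noc4l (61.18 CPM). At 42.5 °C, replicate C was high for Utp20 (466.4 CPM) and replicate D low for Gar1 (44.32 CPM). Utp4 was below replicates A to C of the controls after 6 h at 40 °C and above them at 42.5 °C. Control replicate D, at 182.6 CPM, was above all 42.5 °C libraries (174.3 to 180.8 CPM), and with all 4 controls the change at 42.5 °C was 0.09 against -0.24 after 6 h. Without the controls, the 2 heated groups differed by 0.308 on the log2 scale (edgeR, adjusted p = 2e-05). Utp4 was flagged for passing with opposite signs against 37 °C and for passing this comparison, so that p adds no support. The rule also used the contrast of 42.5 °C with 37 °C, which carries no test here.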

How the results depend on the processing

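No gene changed direction where its change had passed the test. The count of lower genes after 1 h at 40 °C went from 1 to 0 with 1 fit over all groups and to 0 with all 4 controls, and it was 0 to 1 when single libraries were left out. With the replicate letter as a block it was 6, the added genes being Utp15, Nop14, Wdr12, Noc2l and Gnl3. The block moved no other count by over 1.5 times. Whether the letters pair the libraries is not settled. Deviations from group means correlated at 0.048 on average for the same letter (-0.049 to 0.172) and -0.016 for different letters. For 40 °C for 1 h with 37 °C, the same-letter values were 0.074 to 0.172. Of 15 libraries, 6 correlated best with their own letter. Among all tested genes, the block raised the calls after 1 h at 40 °C against 37 °C from 172 to 636. They fell to 4 with all 4 controls and to 107 with 1 fit over all groups. With all 4 controls, 1 gene (Noc2l) passed 1.5-fold after 6 h, and at 42.5 °C against 37 °C 8 genes were lower and 0 higher. Calls among all tested genes then fell from 3091 to 1122 after 6 h and from 4510 to 1895 at 42.5 °C. For 6 h against 1 h, 1 fit over all groups gave 2 genes higher. Leaving out single libraries gave 1 to 4 higher genes at 42.5 °C against 37 °C and 0 to 1 for 6 h against 1 h, where the 1 gene, Ppan, needs 1 h replicate C and 6 h replicate B. Lower genes after 6 h against 37 °C then numbered 9 to 10, and at 42.5 °C against 40 °C for 1 h 11 to 15. The causes were not tested. With 4 libraries a group, changes under about 0.1 on the log2 scale mostly did not pass the test.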
